A study of Rattus norvegicus with 8 samples.

Results

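The genes described here make, move, break down and sense acetylcholine (ACh). They are the muscarinic receptor genes Chrm1, Chrm2, Chrm3, Chrm4 and Chrm5, the cholinesterases Ache and Bche, the synthetic enzyme Chat, the choline transporter Slc5a7 and the vesicular ACh transporter Slc18a3. They were taken as the array spots, control spots left out, whose gene name equals one of these 10 symbols, of 35199 gene names on the array. The 10 genes had 14 spots of 43379, each a different probe of 60 bases, and 7 of the 10 could be tested between the groups.

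Gene expression was measured in the dentate gyrus (DG), the granule cell region of the hippocampal formation, of adult female Sprague-Dawley rats on Agilent oligonucleotide arrays. All 8 rats were ovariectomized 1 week before hormone replacement, and all went through status epilepticus (SE), continuous seizures brought on by kainic acid, a glutamate receptor agonist. The 4 COS rats (castrated, oil, SE) received oil, and the 4 CES rats (castrated, estradiol, SE) received estradiol (E2, labelled EB on the samples). Per the labels, E2 was given as 4 doses of 2 microg every 24 h, with 2 doses before and 2 after SE, kainic acid was given at 16 mg/kg, and pentobarbital ended SE after 5 h. The study's methods give another kainic acid dose, diazepam in place of pentobarbital and all E2 doses before SE, so the timing of the last dose relative to SE is not settled. The methods also give different times for tissue collection, and the time between SE and collection is not settled either. Rats without SE were not analysed here, so every comparison is between oil and E2 within seizured rats, and the labels name 1 rat per sample.

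ACh reaches the DG mainly through axons of the septum and diagonal band, whose cell bodies lie outside the dissected tissue. In such a neuron Slc5a7 takes up choline, Chat joins it to an acetyl group, Slc18a3 loads ACh into vesicles, and acetylcholinesterase in the cleft breaks it down. M1, M3 and M5 receptors couple to Gq proteins and phospholipase C, and M2 and M4 receptors to Gi and Go proteins, which lower cyclic AMP and open inwardly rectifying potassium channels. Muscarinic agonists are convulsants in rats, and the M1 receptor is known for raising the excitability of hippocampal principal cells.

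Each array carried 2 rats of 1 group, replicates 1 and 3 labelled with Cy3 and replicates 2 and 4 with Cy5. COS replicates 1 and 2 shared an array, as did COS 3 and 4, CES 1 and 2, and CES 3 and 4, so array and group cannot be told apart and each group's spread is also that of 2 arrays. A spot was valid in a rat where its signal was at least 2 times its local background, which held for 32381 to 38553 of 43379 spots in COS rats and 30690 to 35352 in CES rats. Levels below are log2 of the background-subtracted signal over the median valid spot of the same rat, so a level of 0 is the middle of that rat's valid spots. A level is compared between rats for 1 gene and never between genes, whose probes differ. Differences are CES minus COS on the log2 scale, from limma over 20787 gene names with a spot valid in all 8 rats, with p-values adjusted over all of them by Benjamini-Hochberg and called under 0.05. Of all gene names tested, 34.3% were called, 5.74% higher and 28.6% lower in CES, and in 21.2% the values of the groups did not overlap. The median difference over all gene names was -0.25, so that a second value, relative to that median, is given for each member. Under 4 other scalings the median lay between 0.04 and 0.14. Of these, loess with Aquantile also changed the background correction, and the deposited log2 table also used median signals.

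Of the 7 genes tested, Slc18a3 and Slc5a7 were lower in CES, Chrm4 and Ache were higher, and Chrm1, Chrm3 and Bche did not pass the test. The 2 called higher are of 7 tested, against 5.74% of all gene names, and the 2 called lower are of 7 against 28.6%. In 1 of the 7, Slc18a3, no CES rat overlapped with a COS rat, against 21.2% of all gene names. The median difference of the 7 was 0.17, against -0.25 over all gene names. Since fewer cells of a type and less RNA per cell give the same reading in a piece of tissue, none of these differences says which occurred. The number of the 10 genes with a valid spot was 9, 8, 8 and 7 in the COS rats and 8, 7, 9 and 8 in the CES rats (exact permutation test, two-sided, p = 1, the smallest possible being 0.0286). The 7 tested genes were valid in every rat by the filter, so only Chat, Chrm2 and Chrm5 could change this count. Their probes were well above background in no rat, so the test says little about detection.

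**Figure D1:**
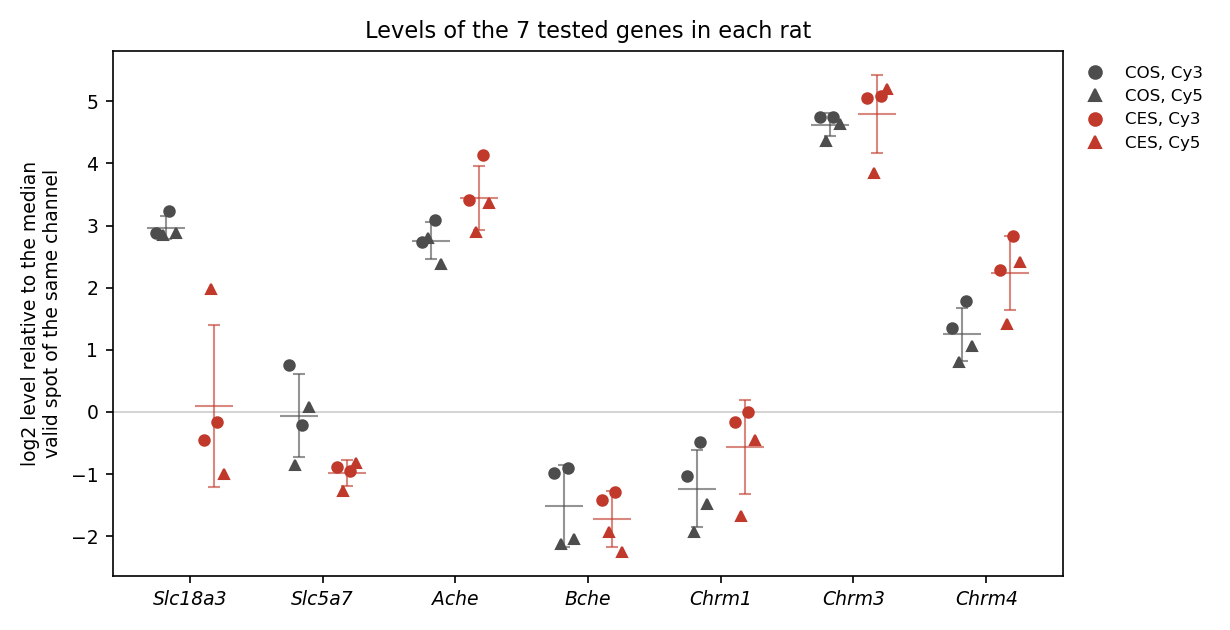
Log2 level, relative to the median valid spot of the same rat and channel, of the 7 tested genes in the 4 COS and 4 CES rats, with circles for Cy3, triangles for Cy5, and horizontal bars with whiskers for the mean and SD of 4 rats. Slc18a3 lies between 2.84 and 3.24 in COS and between -0.997 and 1.98 in CES, the only one of the 7 with no overlap.

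Slc18a3, which fills synaptic vesicles with ACh, showed the largest difference of the 7 genes. Its level was 2.88, 2.84, 3.24 and 2.88 in COS replicates 1 to 4, and -0.45, 1.98, -0.16 and -0.997 in CES replicates 1 to 4. The COS rats lay within 0.40 of each other, 3 CES rats lay far below them, and CES replicate 2 lay between. The difference was -2.87 (SE 0.52, limma adjusted p = 0.00475), or 7.31-fold lower in CES, and -2.62 relative to the median gene. Counted from the largest fall, its rank was 90 of 20787. The probe was well above background in all 8 rats by the scanner's own mark, at 42 to 118 times its local background in COS and 4.96 to 65.5 times in CES. It was lower in CES within each dye, by -3.37 among the Cy3 rats and -2.37 among the Cy5 rats.

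The Slc18a3 call depended on which rats and which test were used. Without CES replicate 2 the difference was -3.56 (limma adjusted p = 1.07e-06), and without COS replicate 3 it was -2.69 (limma adjusted p = 0.0521). An exact permutation test of the 8 values gave p = 0.0286, two-sided, the smallest that 4 against 4 allows. By the same exact permutation test the other called genes, Slc5a7, Ache and Chrm4, each gave p = 0.0571. This test shuffled the rats freely, without regard to array or dye, so it cannot separate group from array.

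CES replicate 2 also stood apart in Fos, the immediate-early gene that neuronal activity induces. The level of Fos was 3.73 in CES replicate 2, -0.22 to 0.25 in the other 3 CES animals and 4.27 to 5.82 in the COS animals. Of the CES animals, replicate 2 also lay nearest the COS animals in the cell type markers Npy, Itgam and Pou3f1, though not in Slc5a7. The part of Fos in the Slc18a3 difference was not tested.

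The Slc18a3 gene lies inside the Chat gene, in its 5′ part, and both are read from the same strand. On rn4, the build of the array annotation, the Slc18a3 probe lies at chr16:7969820-7969879 and the Chat probe at chr16:7952409-7952468, both on the minus strand and 17.4 kb apart. Both are shown since one gave a strong signal and the other did not. The Slc18a3 probe starts 2720 bases into its transcript, of which the opening 30 bases are given, and the Chat probe 995 bases into its own, which is coding sequence.
Slc18a3 probe, opening 30 bases: ggtgatcgccaatcacctactgagagcccc
Chat probe: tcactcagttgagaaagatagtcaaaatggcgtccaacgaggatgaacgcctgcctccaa

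The Chat probe gave 1.66 to 2.45 times its local background over the 8 rats, was valid in 1 of 4 COS and 1 of 4 CES rats, and was well above background in none. It was therefore not tested, and a change in Chat was not detectable with this probe.

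Slc5a7, which supplies choline for ACh synthesis, was lower in CES with a smaller difference. Its level was 0.76, -0.86, -0.21 and 0.08 in COS replicates 1 to 4, and -0.88, -1.28, -0.94 and -0.82 in CES replicates 1 to 4. The CES rats lay close together, and COS replicate 2 lay among them, so the groups overlapped. The difference was -0.92 (SE 0.28, limma adjusted p = 0.0287), or 1.89-fold lower, and -0.67 relative to the median gene. It was called under 11 of 22 alternatives and under none of the other 4 scalings, where it was -0.62 to -0.33. Where only the scaling changed, it was -0.62 (quantile normalization) and -0.52 (scaling over spots valid in all rats). The probe lies at chr9:165495-165554 on the plus strand of rn4, and its scanner mark for a signal clear of background was set in 3 COS rats and in 2 CES rats.

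Chat, Slc5a7 and Slc18a3 are also markers of cholinergic neurons, and the other listed markers of these cells were read beside them. Of 8 such markers, 4 were tested and 3 were lower in CES, against 28.6% of all gene names. The 3 were both transporters and the neurotrophin receptor Ngfr. Ngfr was between 0.34 and 0.84 in COS and between -2.64 and -0.14 in CES, with CES replicate 2 highest in CES (difference -2.15, SE 0.43, limma adjusted p = 0.00626). Lhx8, Isl1 and Gbx1, transcription factors of forebrain cholinergic neurons, had no spot valid in all 8 rats. The summed linear level of the 4 was 11.4 to 15.3 in COS and 6.15 to 7.42 in CES, but it contains both transporters and gives no separate reading of cholinergic cells.

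Of the enzymes that break down ACh, Ache was higher in CES and Bche did not pass the test. Acetylcholinesterase ends transmission in the cleft, and butyrylcholinesterase, its relative, is found in brain largely in glia. The level of Ache was 2.74, 2.81, 3.10 and 2.37 in COS replicates 1 to 4, and 3.41, 2.89, 4.13 and 3.36 in CES replicates 1 to 4. CES replicate 2 fell within the COS range and the other CES rats lay above it. The difference was 0.69 (SE 0.22, limma adjusted p = 0.0355), 1.62-fold higher, and 0.95 relative to the median gene. Under the alternatives the adjusted p was 0.00243 to 0.244, and it was under 0.05 in 13 of 23.

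The level of Bche was -0.99, -2.12, -0.90 and -2.04 in COS replicates 1 to 4, and -1.42, -1.93, -1.29 and -2.25 in CES replicates 1 to 4. In both groups the Cy3 rats were the higher pair, and the groups overlapped throughout. The probe was dim, well above background in 0 Cy3 rats and in 4 Cy5 rats, so this dye pattern lies close to the background. The difference was -0.21 (SE 0.17, limma adjusted p = 0.355) and 0.04 relative to the median gene, with its sign turned under 4 other scalings (0.024 to 0.19).

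The probe behind the Ache value lies in the coding sequence of the C-terminal tail of the T form, the main form at synapses, so the difference above is that of the T form. The Bche probe lies in the related tail of butyrylcholinesterase. They are printed with identical bases in capitals, in the ungapped overlap with most matches: 27 of 43 bases (62.8%) were identical. The Bche probe lies at chr2:164329618-164329677 on the minus strand of rn4, and the annotation of the array gives the Ache probes no position.
Ache probe, T form: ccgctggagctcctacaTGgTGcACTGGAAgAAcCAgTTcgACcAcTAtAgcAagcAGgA
Bche probe: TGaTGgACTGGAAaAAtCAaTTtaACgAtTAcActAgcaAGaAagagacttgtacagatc

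Ache transcripts are spliced at their 3′ end into forms that differ in how the enzyme is anchored, and a pair of further probes was annotated to other forms, marked H and R. The annotation calls both glycolipid-anchored, whereas in the usual naming H is that form and R the readthrough form, and the R wording was not checked against another source. The H probe is printed below since its signal was clear in every rat and yet left out of the test. It had a signal of 624 to 1400 scanner units in the 8 rats, but a local background of 20940 and 20578 in COS replicates 1 and 2, which share an array, against 27 to 40 in the others. It was thus valid in 2 of 4 COS rats, with levels of 1.32 and 0.21 in COS replicates 3 and 4, and of 1.42, 0.80, 1.91 and 1.46 in CES replicates 1 to 4. The R probe gave 1.50 to 2.63 times its background and was well above background in no rat, so these forms could not be compared.
Ache probe, H form: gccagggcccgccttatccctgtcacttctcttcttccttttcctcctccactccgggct

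**Figure D2:**
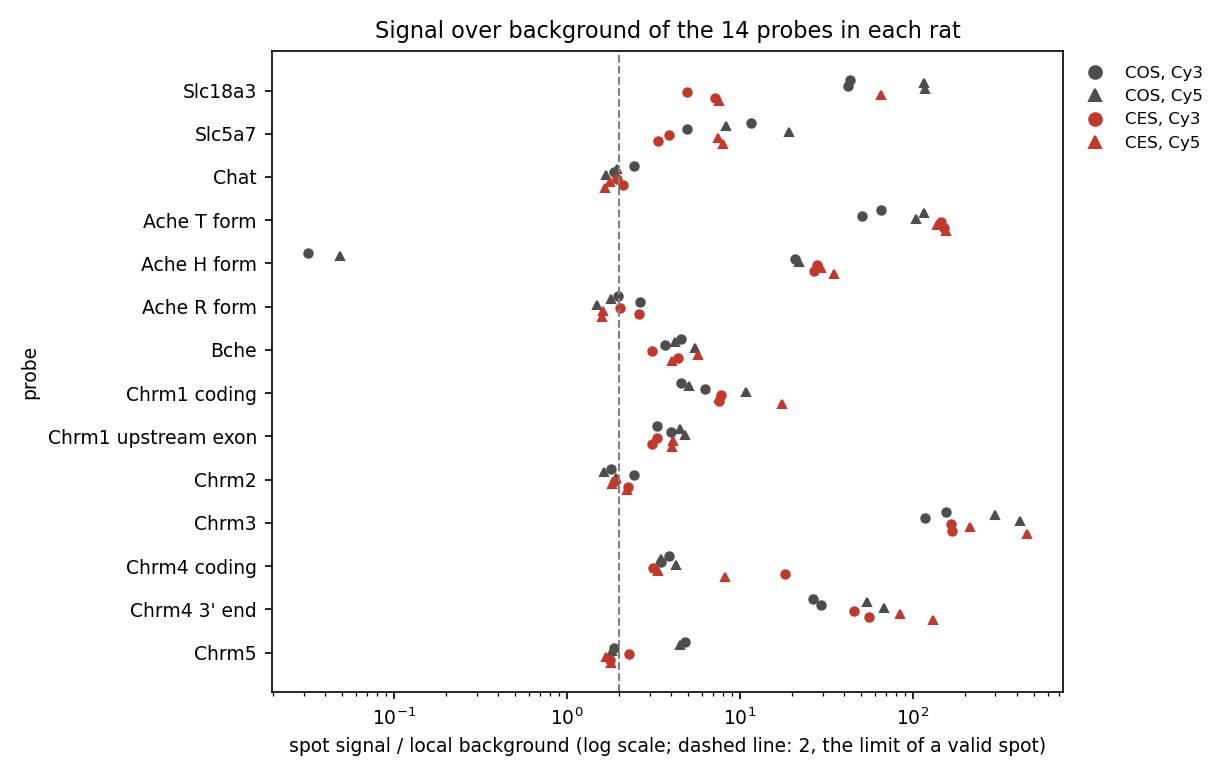
Signal over local background, on a log axis, of each of the 14 probes in the 4 COS and 4 CES rats, with circles for Cy3, triangles for Cy5 and a dashed line at 2, the limit of a valid spot. Chat, Chrm2, the Ache R form and most Chrm5 values lie near the line, and the Ache H form lies below 1 only in the pair of COS rats with the raised local background.

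Among the Gq-coupled receptors, Chrm1 and Chrm3 were tested and neither passed. Chrm1 encodes the M1 receptor, the main muscarinic receptor of hippocampal principal cells. Its level was -1.04, -1.92, -0.49 and -1.49 in COS replicates 1 to 4, and -0.16, -1.67, -0.01 and -0.44 in CES replicates 1 to 4. Within the CES group 3 rats were above every COS rat, and CES replicate 2 was below 3 of the COS rats. The difference was 0.66 (SE 0.27, limma adjusted p = 0.077) and 0.92 relative to the median gene. Without CES replicate 2 it was 0.91 (limma adjusted p = 0.00725), and with the replicate number as a block the adjusted p was 0.0264. It was called under 4 of 22 alternatives, and with another background correction (normexp) it was 0.26 (limma adjusted p = 0.864).

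The probes for Chrm1 differed. One lies in coding sequence at chr1:211352904-211352963 on the plus strand of rn4, and the other upstream of it, at annotated positions 211338808 to 211351711, a span far longer than a probe. The coding probe read 0.94 higher in CES (SE 0.33, limma adjusted p = 0.0508, each probe tested on its own) and the upstream probe -0.03 (SE 0.16, limma adjusted p = 0.91). The upstream probe was well above background in 2 of 4 rats of each group, all of them Cy5 rats, and the coding probe in 3 COS and all 4 CES rats. The difference between the probes was not tested.
Chrm1 probe, coding: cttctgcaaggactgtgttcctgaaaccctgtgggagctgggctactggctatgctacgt

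Chrm3, which encodes the M3 receptor, gave signals of 118 to 458 times the local background. Its level was 4.75, 4.36, 4.75 and 4.64 in COS replicates 1 to 4, and 5.05, 3.85, 5.09 and 5.19 in CES replicates 1 to 4. CES replicate 2 was the lowest of the 8 rats, and the other CES rats were above all COS rats. The difference was 0.17 (SE 0.26, limma adjusted p = 0.647), 0.42 relative to the median gene, and 0.47 without CES replicate 2 (limma adjusted p = 0.0539). Leaving out the array with CES replicates 1 and 2 gave 0.51 (limma adjusted p = 0.0255), and leaving out CES replicate 4 turned the sign (-0.11). The probe lies at chr17:71218326-71218385 on the plus strand.

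Chrm5, the M5 receptor gene, was not tested. Its probe, at chr3:98326985-98327044 on the minus strand, was valid in 2 COS rats, replicates 1 and 2 of a single array (4.84 and 4.49 times background), and in 1 CES rat (2.28 times), and was well above background in none.

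Of the Gi-coupled receptors, Chrm4 was higher in CES and Chrm2 was not tested. Chrm4 encodes the M4 receptor, which is known for damping transmitter release. Its level was 1.35, 0.80, 1.79 and 1.06 in COS replicates 1 to 4, and 2.29, 1.42, 2.83 and 2.41 in CES replicates 1 to 4. CES replicate 2 lay within the COS range and the other CES rats above it. The difference was 0.99 (SE 0.24, limma adjusted p = 0.013), or 1.99-fold higher, and 1.25 relative to the median gene. It was nearly the same within the Cy3 rats (0.99) and within the Cy5 rats (0.99), and 1.19 without CES replicate 2 (limma adjusted p = 0.00157). It was called under 20 of 23 alternatives, and without COS replicate 3 it was 1.06 (limma adjusted p = 0.0552).

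The Chrm4 value was the mean of a bright and a dim probe. The bright probe, toward the 3′ end at chr3:76309651-76309710, read 0.98 (SE 0.23, limma adjusted p = 0.0111, each probe on its own), and was well above background in all 8 rats. The dim probe, in coding sequence at chr3:76308173-76308232, was well above background in no COS rat and in 3 CES rats. Its level was -1.78, -2.67, -1.02 and -2.87 in COS replicates 1 to 4, and -1.56, -2.84, 0.74 and -1.01 in CES replicates 1 to 4 (limma adjusted p = 0.177). On the dim probe CES replicate 3 stood above the rest, whereas on the bright probe CES replicates 1, 3 and 4 lay above every COS rat.
Chrm4 probe, 3′ end, opening 30 bases: acccccaacaaagctccctggcaaactccc
Chrm4 probe, coding: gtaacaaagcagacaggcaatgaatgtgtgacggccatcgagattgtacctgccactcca

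Chrm2, the M2 receptor gene, gave 1.64 to 2.44 times its local background, with a probe at chr4:63916400-63916459 on the plus strand. It was valid in 1 COS and 2 CES rats and well above background in none.

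Some cell type markers moved together with the higher receptor values and Ache. Of 6 markers of CA pyramidal cells, the neurons next to the DG, 4 of 5 tested were higher in CES, against 5.74% of all gene names. The summed level of the 5 was 21.5 to 28.6 in COS, 25.7 in CES replicate 2 and 47.0 to 57.8 in the other CES rats. Of 6 astrocyte markers 3 were higher, against 5.74% of all gene names, and none lower. Their sum was 223 to 263 in COS and 218 to 363 in CES. Gfap, however, was 5.63 to 6.04 in COS and 3.48 to 5.58 in CES (limma adjusted p = 0.0532). The part of these cells in the Chrm4, Chrm1 and Ache values was not tested.

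Markers of the DG itself were present. Calb1, of granule cells, did not pass the test (difference -0.28, SE 0.23, limma adjusted p = 0.375), and Prox1, their defining transcription factor, had no spot valid in all 8 rats. Of 5 granule cell markers tested 3 were lower, against 28.6% of all gene names. Their sum was 12.8 to 22.8 in COS and 9.08 to 13.3 in CES. Among 6 interneuron markers tested, Sst, Vip and Npy were lower, 3 of 6 against 28.6% of all gene names, and 0 were higher. Gad1 (difference -0.57, SE 0.21, limma adjusted p = 0.0589) and Gad2 (difference -0.58, SE 0.25, limma adjusted p = 0.0932) were not called. Pvalb was not called either (difference 0.51, SE 0.20, limma adjusted p = 0.0715). The sum was 344 to 547 in COS and 98 to 282 in CES, and most of it came from Sst and Npy. Mbp, Aif1 and Ttr, of oligodendrocytes, microglia and choroid plexus, were not called (limma adjusted p of 0.547, 0.212 and 0.711), and Ttr ranged from 3.57 to 9.22 within COS. Among the 6 microglia markers, however, Itgam was lower without overlap (difference -1.92, SE 0.45, limma adjusted p = 0.0109), as was Csf1r (difference -0.92, SE 0.19, limma adjusted p = 0.00756), and P2ry12 was higher (difference 0.93, SE 0.20, limma adjusted p = 0.00785). Their summed level was 28.3 to 41.8 in COS and 24.2 to 34.0 in CES.

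**Figure D3:**
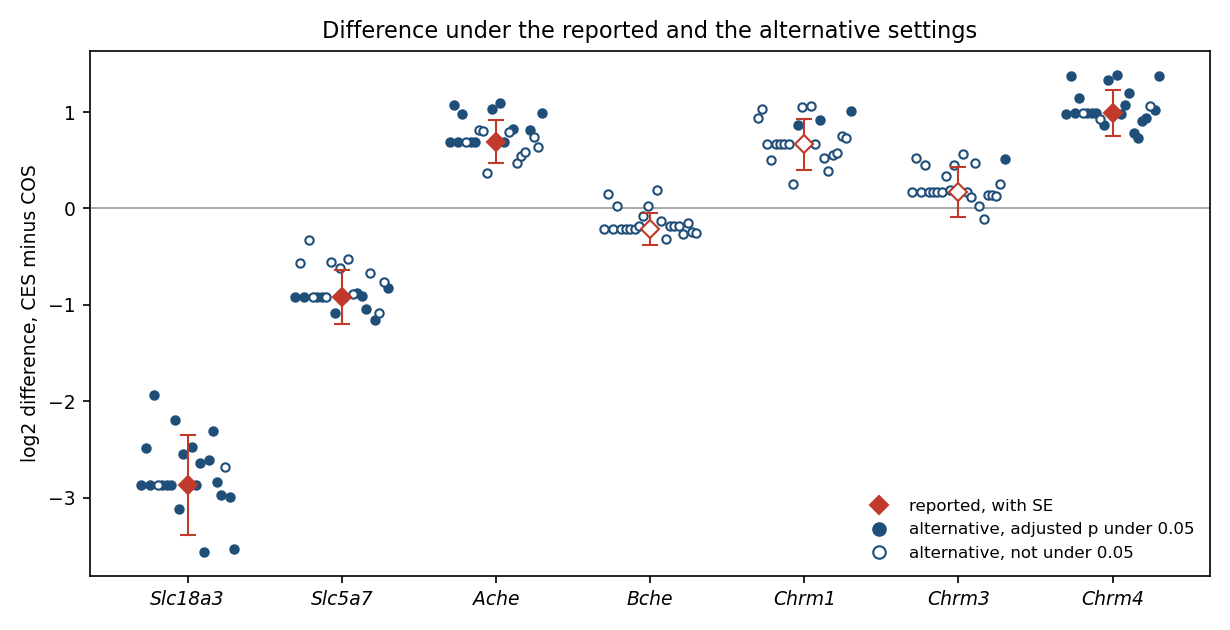
Log2 difference, CES minus COS, of the 7 tested genes, with diamonds and SE bars for the reported fit (filled where adjusted p was under 0.05) and circles for the 22 or 23 alternative settings. Slc18a3 stays between -3.56 and -1.94 and Chrm4 between 0.73 and 1.39, while Bche and Chrm3 lie on both sides of 0.

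The remaining genes of the cholinergic synapse were read from lists by role, 72 genes of which 53 were tested. Of these, 6 were higher and 10 lower, 30.2% called against 34.3% of all gene names, so the share was near the background. The median difference was -0.06, against -0.25 over all gene names. Beside the counts by role below, 5.74% of all gene names were higher and 28.6% lower. This balance changed with the scaling.

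Among enzyme anchors and choline supply, 4 of 12 tested were lower and 0 higher, 33.3% called against 34.3% of all gene names. The median was -0.27. The choline transporter-like gene Slc44a4 was 1.03 to 1.61 in COS and -0.67 to 0.04 in CES (difference -1.65, SE 0.21, limma adjusted p = 0.00307), 3.14-fold lower. Slc44a1 was 3.56 to 4.13 in COS and 2.54 to 3.27 in CES (difference -0.82, SE 0.19, limma adjusted p = 0.0116). Pld1, a phospholipase that releases choline from phosphatidylcholine, was also lower (difference -0.53, SE 0.17, limma adjusted p = 0.0371). Its groups barely parted, at 0.8150 to 1.33 in COS and 0.336 to 0.8140 in CES. Colq and Prima1, which anchor acetylcholinesterase at the muscle endplate and in brain membranes, were not called, at -0.60 (limma adjusted p = 0.084) and 0.02 (limma adjusted p = 0.956).

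Of the nicotinic subunits and their modulators, 1 of 10 tested was higher and 3 lower, 40% called against 34.3% of all gene names. Their median was -0.20. Chrne, the epsilon subunit of the adult muscle receptor, had the largest difference of all these genes, with 2.37 to 3.75 in COS and -1.89 to -1.01 in CES (difference -4.45, SE 0.29, limma adjusted p = 0.000286). Chrna7, whose product forms the homomeric receptor of hippocampal neurons, was 2.20 to 3.63 in COS and 1.77 to 2.15 in CES (difference -1.003, SE 0.29, limma adjusted p = 0.0245).

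In the Gq arm that M1, M3 and M5 use, 4 of 14 tested were higher and 1 lower. The share called was 35.7%, against 34.3% of all gene names, and the median was 0.08. Plcb3, a phospholipase C, was lower without overlap (difference -1.02, SE 0.25, limma adjusted p = 0.0128), and Gnaq, the alpha subunit of Gq, was not called (difference -0.20, SE 0.15, limma adjusted p = 0.338). In the Gi arm that M2 and M4 use, 1 of 17 was higher and 2 lower, 17.6% called, with a median of 0.02. Gnai2 was 2.87 to 3.41 in COS and 2.12 to 2.64 in CES (difference -0.78, SE 0.18, limma adjusted p = 0.011), and Gnao1, of the Go protein, was not called (difference 0.36, SE 0.21, limma adjusted p = 0.196).

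**Figure D4:**
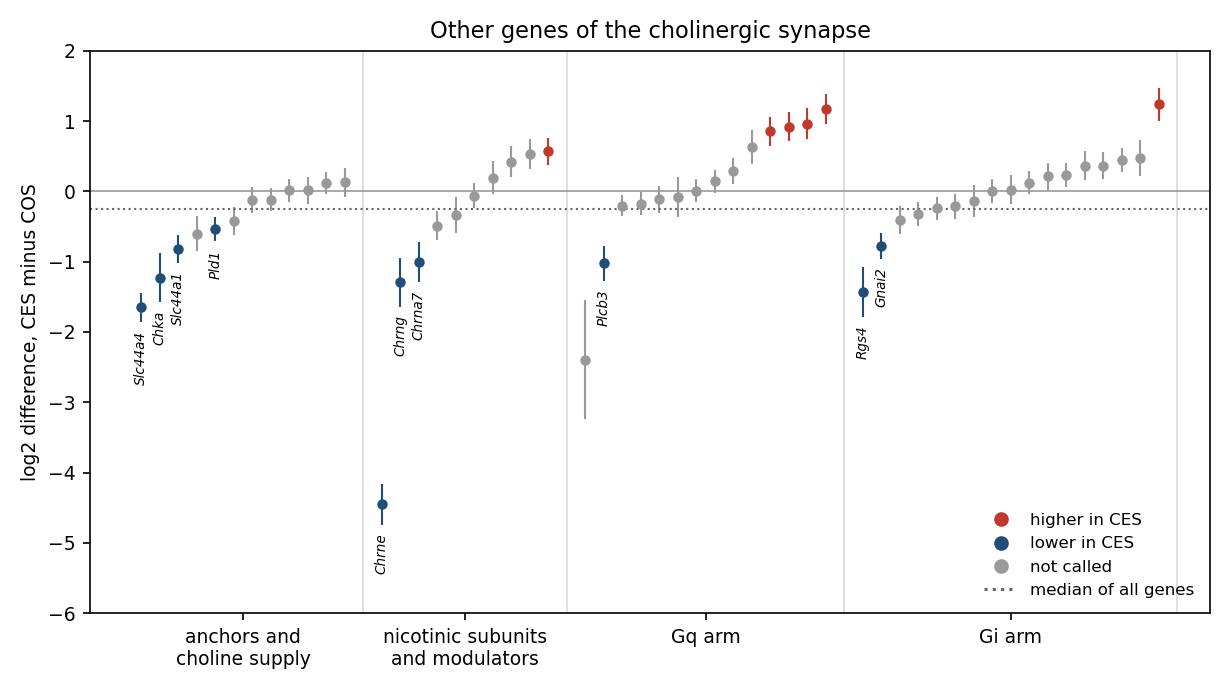
Log2 difference, CES minus COS, with its SE, of the 53 tested genes of the cholinergic synapse other than the members, by role, in red where called higher, blue where called lower and grey where not called, with a dotted line at the median of all gene names (-0.25), and names at the genes called lower. The Gq arm holds 4 of the 6 genes called higher, and Chrne lies lowest at -4.45.

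Promoters of 9 of the 10 genes, taken from RefSeq on GRCr8 as 250 bases before and 50 after the transcript start, were searched on both strands for the estrogen response element GGTCANNNTGACC, its half-site GGTCA and the AP-1 site TGANTCA. The full element was in none of the 9 and in 0.03% of 33469 promoters, and the AP-1 site in none and in 7.33%. The half-site, which the full element also contains, was in 4 of the 9, those of Chat, Slc5a7, Bche and Chrm4, and in 40.51% of all promoters. Chrm5 had no entry. The windows of Chat and Slc18a3 both lie on the minus strand of chromosome 16.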

How the data were processed

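The authors scanned each 2-colour array with Agilent Feature Extraction (version 10.7.3.1, per the submitters' processing notes). The deposited files hold each spot's mean and median intensity and local background median in 2 channels, 1 rat per channel, and rats that share an array have identical files. A deposited table of log2 values was found to equal log2 of the median signal minus background, centred on a column median of 0, and served as an alternative only. Probe positions are those of the deposited annotation (rn4).

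From the intensities, the background median was subtracted from the mean signal, and the result was set over the rat's median valid spot (signal at least 2 times background, after the study's methods). Spots valid in all 8 rats and marked as outliers in none (26294) were averaged per gene name and log2 transformed. limma (3.58.1, R 4.3.3) was fitted with dye as a term and array as a random block (consensus correlation -0.010). No spot was saturated. The depth of an array is not counted, so the 4 rats per group limit the precision.

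The deviations of same-numbered rats of the groups correlated weakly (r = 0.21 to 0.35), but these rats share a dye. The best-matching CES rat was the same-numbered one only for COS replicate 2. Within dyes r was -0.06 to -0.04, but each dye has only 2 rats per group, whose deviations mirror each other. It is thus no check of each pair. The fit with the replicate number as a block was an alternative. Other alternatives changed the background correction, the scaling, the filter, the probe rule, the test (the methods' t-test), or left out rats. The limma fit in its reported setting was tested on a simulated data set with independent rats and no array effect. The other procedures were not tested on simulated data. All 10 genes are named, and of the other listed genes those called without overlap, at most 4 per role, and a fixed few. Some genes that this rule would name are not reported here. The genes and lists were chosen with earlier results of these data known.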

Additional observations from a re-analysis of the deposited data

Results flagged for a closer look

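Within the groups of 4 rats, the value most apart from the rest was compared with the whole range of its group, for the 7 genes in COS and in CES. Of these 14 groups 2 went beyond Dixon's 95% limit, and chance alone puts about 1 in 20 groups beyond it. Chrm3 in CES replicate 2, at a level of 3.85, was separated from the nearest CES rat by 0.899 of the group's range. Slc18a3 in COS replicate 3, at 3.24, was separated by 0.903 of a range that spanned 0.40 on the log2 scale.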

How the results depend on the processing

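The limits are 4 rats per group on 2 arrays each, with array nested in group, and probes too dim to test for 3 of the 10 genes. Among the tested genes, Chrm1, Bche and Slc5a7 had no probe that was well above background in every rat. Of all gene names 7137 were called, but 618 with normexp background correction and 0 with the methods' t-test, which called 5900 at an unadjusted p under 0.05 (limma 9400). Leaving out 1 rat gave 1426 (without COS replicate 3) to 8655 (without CES replicate 2), with 4124 without COS replicate 1 and 3082 without CES replicate 1. Of the 10 genes 4 were called, 1 with normexp (Slc18a3), 2 without the filter on valid spots (Chrm4 and Slc18a3) and 0 with the methods' t-test, which had 2 (Chrm4 and Slc18a3) at an unadjusted p under 0.05. Leaving out 1 rat gave 0 (without COS replicate 3) to 5 (without CES replicate 2) of the 10, and 2 without COS replicate 1, COS replicate 4 or CES replicate 1, each time Chrm4 and Slc18a3. The cause was not tested.

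The direction of calls over all gene names turned with the scaling. Genes higher in CES were 16.7% of calls as reported, 59.5% with loess and Aquantile, 57.4% with quantile normalization, 65.5% with scaling over spots valid in all rats and 62.5% in the deposited log2 table. In number they were 1194 as reported, and 3249, 3009, 3380 and 3210 under these 4. The 5.74% set beside the lists above therefore holds for the reported scaling only. Bche turned to 0.024, 0.028, 0.19 and 0.15 under these 4, and Chrm3 ranged from -0.11 to 0.47 with 1 rat left out. The other 5 genes kept their sign in all their alternatives. With the replicate block, 7700 gene names and 5 of the 10 genes were called, Chrm1 in addition (limma adjusted p = 0.0264), and no other call of the 7 changed. Testing each probe on its own and leaving out the array of CES replicates 1 and 2, which called 6 of the 10, were chosen after seeing the data.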
